A study of Mus musculus with 12 samples.

Results

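The comparison was between 2 populations of 4T1 cells that carried different guide RNAs against the same gene, Cop1. It took the 4 libraries labelled Cop1 sgRNA2 and the 4 labelled Cop1 sgRNA1, 8 of the 12 RNA sequencing libraries of the series, and asked which transcripts differed between the guides by an amount shared by both treatments. The 4T1 line derives from a mammary carcinoma of a BALB/c mouse and is widely used in transplant studies of breast cancer. Each guide was represented by 2 libraries from cells given vehicle and 2 from cells given IFNγ (interferon gamma, 20 ng/ml, 24 hours), and the remaining 4 libraries came from cells with a control guide against Rosa26 under the same treatments. The labels do not say where in Cop1 either guide cuts, whether a population was a pool or a clone, or whether replicates were separate cultures. The p-values below therefore measure only the spread between these libraries, which may be technical, and since each guide is 1 population, an effect of the guide cannot be told apart from any other difference between the populations.

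COP1 is an E3 ubiquitin ligase that works with DET1, DDB1 and a cullin scaffold and marks transcription factors for destruction. Its best known substrates are c-Jun, members of the C/EBP family, which reach it through Tribbles pseudokinases, and PEA3-type ETS factors. A guide RNA that leads Cas9 to a coding exon can leave a frameshift in part of the alleles, and transcripts with an early stop codon are often degraded, so that the level of the targeted mRNA can differ between guides without reporting the amount of protein.

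Cop1 mRNA was lower with sgRNA2 than with sgRNA1. Cop1 (chromosome 1, 159232156 to 159354872 in RefSeq on GRCm38.p6) stood at 59.1 and 63.1 CPM (read counts scaled to library size) in the sgRNA1 vehicle libraries and at 34.5 and 34.7 in the sgRNA2 vehicle libraries. With IFNγ the values were 60.7 and 60.2 with sgRNA1 and 32.3 and 33.6 with sgRNA2. The guides did not overlap in either treatment, and Rosa26 libraries were above both, at 89.7 and 98.2 in vehicle and 80.4 and 83.3 with IFNγ. The shared log2 difference, sgRNA2 minus sgRNA1, was -0.85 ± 0.046 (standard error, as after every log2 difference here; adjusted p = 2.66e-16, edgeR's quasi-likelihood F test with treatment as covariate and Benjamini-Hochberg adjustment over 11738 genes). sgRNA2 left 36.8% of the Rosa26 level in vehicle and sgRNA1 65.0%. In bulk RNA, fewer cells with the transcript and less transcript per cell cannot be told apart.

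The 5 tested genes on either side of Cop1 were examined for a difference spread along the chromosome. Of these 10 neighbours, 1 was called, Rc3h1, a regulator of mRNA decay (0.20 ± 0.036, adjusted p = 0.000114). Of the nearest tested neighbours, 4930523C07Rik was at -0.09 ± 0.071 (adjusted p = 0.467) and Pappa2 at -0.86 ± 0.32 (adjusted p = 0.0745), a difference of the size of that of Cop1. Relative to Rosa26, however, Pappa2 was at 0.84 with sgRNA1 and -0.03 with sgRNA2, and Cop1 at -0.53 and -1.38. Pappa2 passed without the low-count filter (adjusted p = 0.0379) and without sgRNA2 vehicle replicate 1 (adjusted p = 0.0417).

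Beyond Cop1, many transcripts differed between the guides, most of them slightly. At an adjusted p under 0.05, 1559 of 11738 genes were called, 13.3% of those tested, of which 776 were higher with sgRNA2 (6.61%) and 783 lower (6.67%). The median size among called genes was 0.16 on the log2 scale. At least 2-fold differences numbered 17 (0.145%), 6 higher and 11 lower, and 1280 of the called genes differed by less than 1.2-fold. Against a minimum fold of 1.2 (edgeR's glmTreat), 43 genes passed, 15 higher and 28 lower. Beyond counting noise, replicates varied by 3.61% (edgeR's common coefficient of variation). In vehicle alone 623 genes were called (5.31%) and with IFNγ 1018 (8.67%), and in 2483 genes (21.2%) the libraries of the guides did not overlap and lay the same way round in both treatments.

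The guide differences in vehicle and with IFNγ rest on different libraries, so each treatment could be read against the other. Fitted on the 4 vehicle libraries alone, 464 genes were called among the 11312 tested in both fits. Of these, 437 (94.2%) had the same sign with IFNγ, 278 were also called there, and 0 were called with the opposite sign. Fitted on the 4 IFNγ libraries alone, 1246 were called and 1078 (86.5%) had the same sign in vehicle, against 63.6% of all genes tested in both. Across these genes the differences in the treatments had a Pearson correlation of 0.25, a description over genes that share libraries and are not independent.

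**Figure D1:**
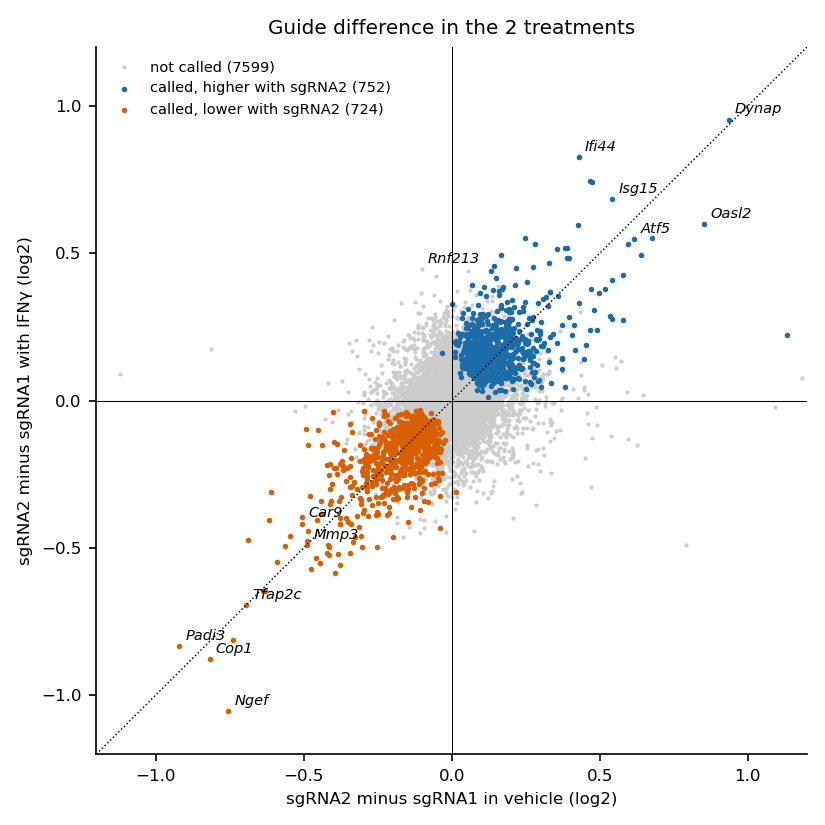
Guide difference, sgRNA2 minus sgRNA1 on the log2 scale, in vehicle (horizontal) and with IFNγ (vertical) for the 9075 genes whose mean log2 CPM was 3 or more. Each point is a gene, blue and orange points passed the test of the shared difference, the dotted line marks equal differences, and 3 genes lie beyond the axes. Named genes such as Dynap and Cop1 lie near the dotted line, and Rnf213 lies high with IFNγ only.

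Library properties moved with the comparison in part. The 8 libraries held 19378070 to 32609717 counts. Replicate 1 of sgRNA2 vehicle stood apart from the rest on the third principal component and had the highest mitochondrial share (0.503%) and ribosomal protein share (6.97%) among the 12 libraries. Without it 1547 genes were called, 1306 of them among the 1559. The guide difference also followed transcript length. In the decile of genes with the shortest transcripts the median shared difference was -0.03, with 15 genes called higher and 100 lower, and in the decile with the longest it was 0.06, with 211 higher and 41 lower. With IFNγ these medians ran from -0.07 to 0.10, and in vehicle from 0.00 to 0.02. Within single libraries the longest decile lay below the shortest in both sgRNA1 groups and in sgRNA2 vehicle, by differences of -0.13 to -0.07, and above it in sgRNA2 with IFNγ (0.10 and 0.04) and in the 4 Rosa26 libraries (0.06 to 0.14). With each library's trend on length and GC content removed, an alternative chosen after the data were seen, 1476 genes were called (789 higher, 687 lower), 1207 of them among the 1559. Most gene lists below are given with their count after this correction (called the corrected count), and the place of each list in the trend was not tested further. Marker lists of other cell types summed to less than the epithelial list in both populations. The leukocyte list summed to between 23.5 and 31.0 CPM. Of its 18 markers, 7 to 9, Cd3e and Adgre1 among them, were at 0 in all 4 libraries of a guide. Its highest marker, Cd14, had a mean of 15.8 CPM with sgRNA1 and 13.9 with sgRNA2. The fibroblast list summed to between 16.5 and 23.9 CPM, led by Pdgfra at means of 18.1 and 16.7. Epithelial markers led by Krt8 summed to 3337 to 3990 CPM.

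**Figure D2:**
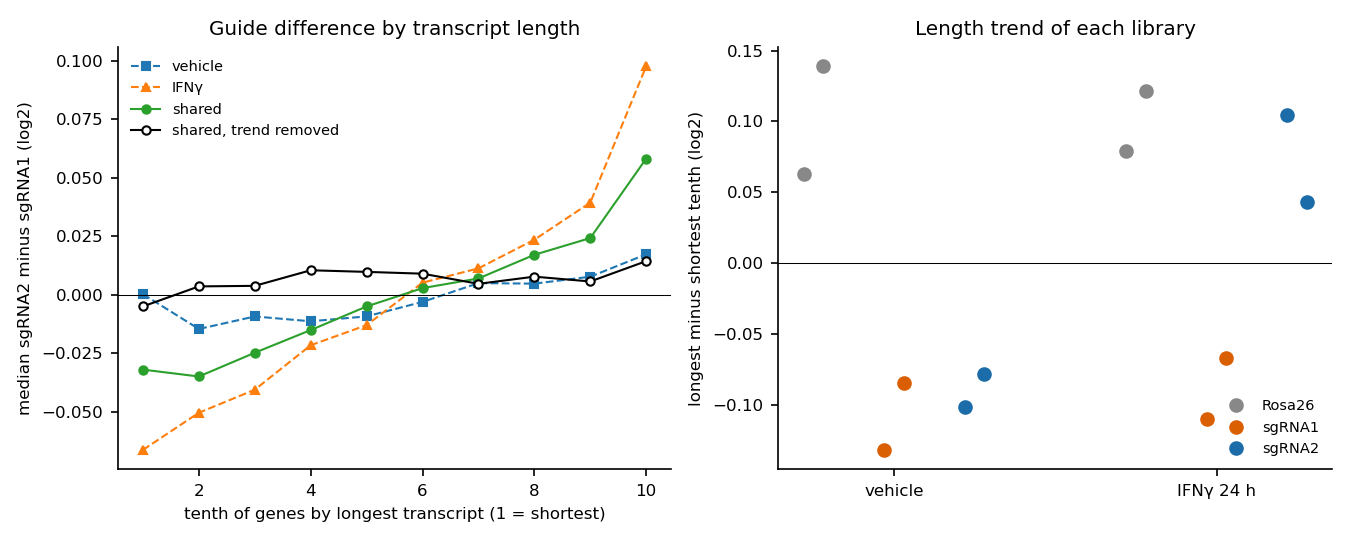
Left, median guide difference (log2) in deciles of genes ordered by their longest transcript, in vehicle, with IFNγ, shared, and shared after removal of the trend on length and GC content. Right, for each library the median log2 deviation of the longest decile minus that of the shortest, where the 2 sgRNA2 libraries with IFNγ lie at 0.10 and 0.04, on the side of the Rosa26 libraries.

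Interferon-stimulated genes of the type I class were higher with sgRNA2. These genes are switched on by the ISGF3 complex and encode antiviral effectors, and IFNγ induces many of them as well. Of 31 tested members, 22 were called higher and 0 lower, against 6.61% of all genes called higher. The median shared difference was 0.40, with 0.43 in vehicle and 0.38 with IFNγ, beside 0.00 for all genes. All 31 had a positive difference, from 0.13 to 1.02. The members' median deviation from the 4-library mean of their treatment was -0.24 and -0.16 in the sgRNA1 vehicle libraries and 0.19 and 0.20 in the sgRNA2 ones, and with IFNγ -0.25 and -0.17 against 0.17 and 0.23. After removal of the length and GC trend 26 were called higher.

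The motif known for binding ISGF3, the ISRE, was looked for in the 250 bases before RefSeq transcription starts (GRCm38.p6) as GAAA, any 2 bases and GAAA, on both strands. It was present in 10 of 22 listed interferon-stimulated genes with a promoter in the table and in 306 of 9425 tested genes (3.25%). Of the called members among these, 6 of 16 held it. Of 6 called members that hold it, 2 picked as examples after their values were seen are shown, with the matches, which can overlap each other, in capitals. Isg15 spans chr4:156200819-156201068 on the minus strand and Oas1a chr5:120907526-120907775 on the minus strand.
Isg15: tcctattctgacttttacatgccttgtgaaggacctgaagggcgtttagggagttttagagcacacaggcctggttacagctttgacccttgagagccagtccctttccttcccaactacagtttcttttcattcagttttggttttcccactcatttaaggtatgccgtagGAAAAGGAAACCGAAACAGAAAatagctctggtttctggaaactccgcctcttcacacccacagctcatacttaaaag
Oas1a: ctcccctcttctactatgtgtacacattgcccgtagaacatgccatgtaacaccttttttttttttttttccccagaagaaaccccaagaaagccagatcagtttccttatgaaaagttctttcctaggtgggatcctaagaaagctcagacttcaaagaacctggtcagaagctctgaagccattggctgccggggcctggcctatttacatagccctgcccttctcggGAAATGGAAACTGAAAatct
A match is a description of these letters and was not tested for binding.

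Isg15 encodes a ubiquitin-like protein that is attached to other proteins during antiviral responses. It stood at 8.92 and 6.30 CPM in the sgRNA1 vehicle libraries and 11.2 and 11.5 in the sgRNA2 ones, and with IFNγ at 28.4 and 27.3 against 41.1 and 48.5. No sgRNA1 library reached an sgRNA2 library of its treatment, and the shared difference was 0.63 ± 0.078 (adjusted p = 2.86e-07). Rosa26 libraries were higher still, at 19.5 and 19 in vehicle and 74.5 and 72.1 with IFNγ.

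Members of the oligoadenylate synthetase family, some of which sense double-stranded RNA and activate RNase L, moved with it. Oas1a, whose promoter is shown above, had 4.97 and 5.17 CPM in sgRNA1 cells and 7.69 and 5.99 in sgRNA2 cells in vehicle, and 28.1 and 26.4 against 41.2 and 41.4 with IFNγ (0.55 ± 0.076, adjusted p = 1.74e-06). Oasl2 showed the same order with little spread, at 6.20 and 6.39 against 11.5 and 11.1 in vehicle and 85.5 and 84.4 against 128 and 129 with IFNγ (0.65 ± 0.050, adjusted p = 2.88e-12). Oas3 (0.69 ± 0.078) and Oasl1 (0.60 ± 0.068) rose too, and since these genes are close relatives, reads may be split between them uncertainly.

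Among the other large increases, Irf7, a transcription factor that amplifies interferon responses, rose by 0.69 ± 0.091 (adjusted p = 7.77e-07). Ifi44 rose by 0.77 ± 0.11, the RNA helicase gene Ddx60 by 0.54 ± 0.10 and the mono-ADP-ribosyltransferase gene Parp14 by 0.36 ± 0.041. Rsad2, which encodes viperin and was named after its values were seen as the list member with the largest difference, had 0.552 and 0.987 CPM with sgRNA1 against 1.87 and 1.61 with sgRNA2 in vehicle and 4.23 and 5.26 against 8.86 and 9.45 with IFNγ (1.02 ± 0.17, adjusted p = 3.61e-05). Bst2, which encodes the membrane tether of budding virions, did not pass the test at 0.20 ± 0.068 (adjusted p = 0.119). It passed in 9 of 19 alternative settings, with adjusted p-values down to 8.22e-07. Ifit2 was at 0.16 ± 0.063 (adjusted p = 0.0984) and passed without sgRNA1 vehicle replicate 2 or sgRNA2 vehicle replicate 1 (down to 0.035).

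The IFNγ-side families showed smaller differences. Of 16 guanylate-binding proteins and immunity-related GTPases, which attack vacuoles of intracellular pathogens, 7 were called higher and 0 lower, with a median of 0.14 and the same corrected count. Over all genes, 6.61% were called higher. Gbp3 had 3.56 and 3.66 CPM in sgRNA1 cells and 5.33 and 5.16 in sgRNA2 cells in vehicle and 346 and 348 against 418 and 422 with IFNγ (0.30 ± 0.035, adjusted p = 6.36e-08). Igtp rose by 0.16 ± 0.035, whereas Gbp2 (0.09 ± 0.068, adjusted p = 0.455) and Irgm2 (0.11 ± 0.057, adjusted p = 0.267, and 0.0488 without the low-count filter) did not pass. The count was 3 when the mean of the within-treatment contrasts was tested instead, and 4 without sgRNA2 IFNγ replicate 2.

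Signalling components moved in both directions. Of 20 genes of IFNγ signalling and feedback, 2 rose and 3 fell, also in the corrected count, beside 13.3% of all genes called. Stat2 rose by 0.17 ± 0.042 (adjusted p = 0.00341) and Irf1 by 0.12 ± 0.028 (adjusted p = 0.00443). Irf1 was named after its values were seen. Socs3, an inhibitor of JAK kinases, fell by 0.28 on the log2 scale (adjusted p = 4.48e-05), and so did the phosphatase gene Ptpn1, by 0.21 (adjusted p = 5.29e-05). IFNγ acted in both populations, with Irf1 at 35.6 to 41.9 CPM in their vehicle libraries and 452 to 486 in their IFNγ libraries.

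Antigen presentation genes gave mixed results. Of 20 MHC class I pathway genes, 1 rose and 5 fell (1 and 4 in the corrected count), beside 6.67% of all genes called lower. The largest of these falls was in Calr, which is also an ER chaperone gene and is described with those below. H2-Q4 rose by 0.15 ± 0.033, but it belongs to a family of near-identical class I genes whose reads may be misassigned. Class II genes were expressed almost only with IFNγ, so they are given for those libraries. H2-Eb1 had 14.4 and 15.1 CPM in sgRNA1 cells and 10.6 and 9.98 in sgRNA2 cells (-0.51, adjusted p = 0.0247), and H2-DMb1 had 14.5 and 14.7 against 9.77 and 9.98 (-0.57, adjusted p = 0.0117). Cd74, the invariant chain, had 125 and 130 against 100 and 105 (-0.31, adjusted p = 0.000122). In the shared difference 4 of 11 class II genes were called lower, also in the corrected count, 1 or 2 when a single IFNγ library was left out and 0 as the mean of the within-treatment contrasts.

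The checkpoint ligand gene Cd274, which encodes PD-L1, did not pass the test, at 0.18 ± 0.084 (adjusted p = 0.171). Among chemokine genes induced by interferon, Cxcl10 rose by 0.26 ± 0.063 (adjusted p = 0.00417) and Cxcl9 was at 0.08 ± 0.051 (adjusted p = 0.338). Lgals9, which encodes the lectin galectin-9, rose by 0.46 ± 0.074 (adjusted p = 2.22e-05).

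**Figure D3:**
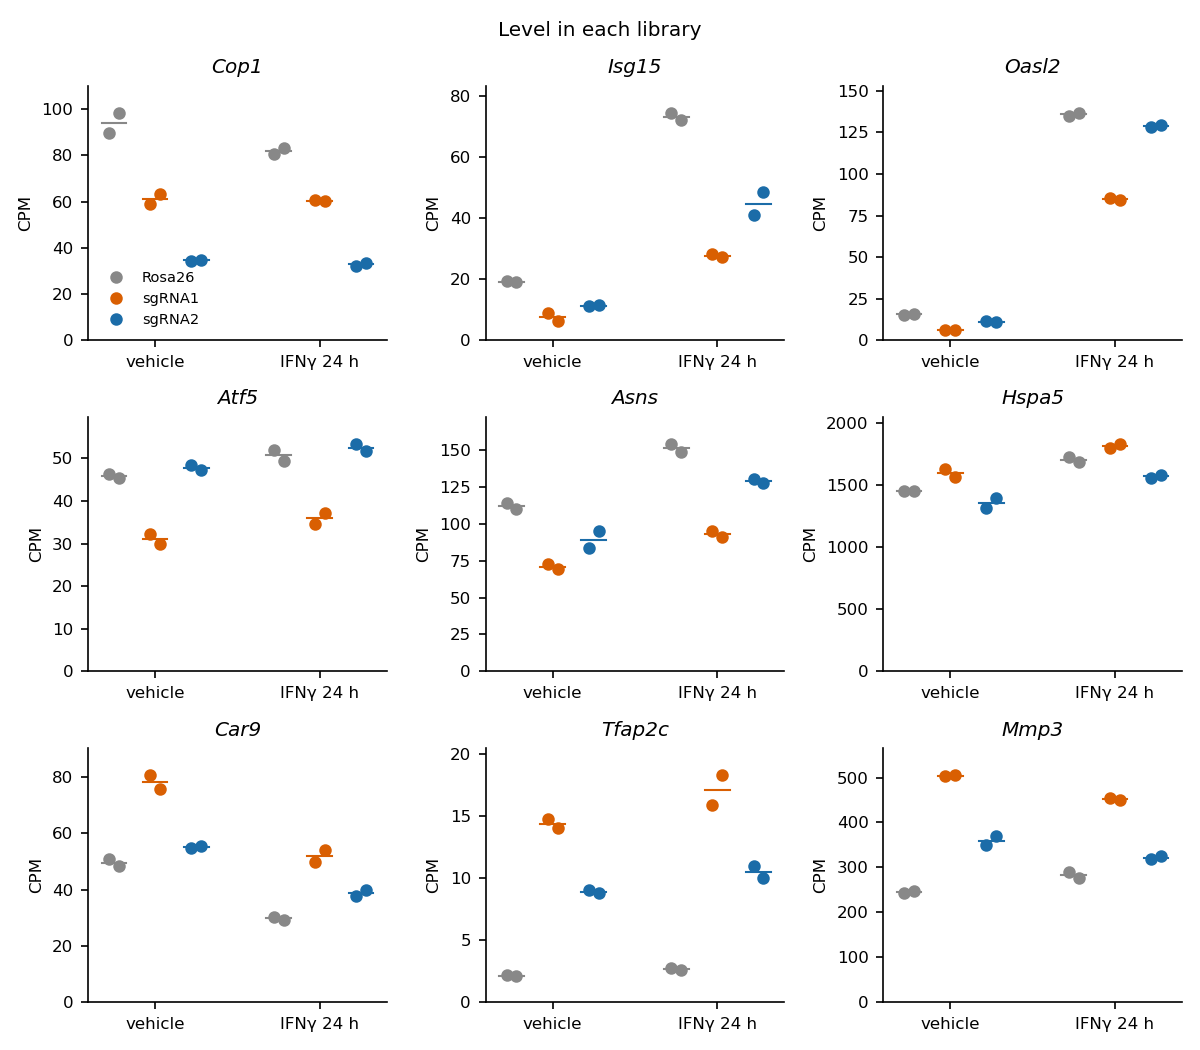
Level of 9 genes in every library, in CPM on linear axes from 0, for the Rosa26, sgRNA1 and sgRNA2 populations in vehicle and with IFNγ, with a line at the mean of 2 libraries. sgRNA2 lies below sgRNA1 for Cop1, Hspa5, Car9, Tfap2c and Mmp3 and above it for Isg15, Oasl2, Atf5 and Asns, in both treatments.

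Genes of the integrated stress response were higher with sgRNA2. In this response, phosphorylation of eIF2α favours translation of ATF4, which activates genes of amino acid uptake and synthesis. Of 29 tested members, 15 rose and 0 fell, against 6.61% of all genes called higher, with a median of 0.16 (0.10 in vehicle, 0.18 with IFNγ). The count was 14 after removal of the length and GC trend. The median deviation was -0.05 and -0.07 in the sgRNA1 vehicle libraries against 0.09 and 0.08 in the sgRNA2 ones, and with IFNγ -0.07 and -0.13 against 0.10 and 0.08. Ribosome biogenesis and MYC genes, also tied to growth, had 10 of 29 called higher and 1 lower (12 and 1 in the corrected count), but 5 higher with the libraries of each guide and treatment summed.

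Atf5, a transcription factor of the ATF4 group, had 32.3 and 29.9 CPM in sgRNA1 cells and 48.4 and 47.3 in sgRNA2 cells in vehicle, and 34.6 and 37.3 against 53.3 and 51.6 with IFNγ. The guides were apart in both treatments (0.58 ± 0.049, adjusted p = 3.26e-11), and the sgRNA2 libraries lay close to Rosa26, which had 45.3 to 51.9. Asns, asparagine synthetase, had 72.7 and 69.3 against 83.5 and 95.04 in vehicle and 95.1 and 91.0 against 130 and 128 with IFNγ (0.40 ± 0.040, adjusted p = 3.1e-09). For this gene Rosa26 was higher than both guides, at 110 to 154. Gpt2, an alanine transaminase, rose by 0.47 ± 0.066 (adjusted p = 1.79e-06). The amino acid transporter gene Slc7a1 was at 0.06 ± 0.033 (adjusted p = 0.224, and 0.0399 without sgRNA1 vehicle replicate 2).

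An ATF4-type motif (CARE), searched as TGATGNAA on both strands, was found in 6 of 25 promoters of this list and in 2.35% of tested genes. Of the called members with a promoter, 3 of 14 held it. Among all genes it was in 2.49% of those called higher and 2.54% of those called lower. Asns is shown because it holds a match 23 bases before its start (capitals), over chr6:7693210-7693459 on the minus strand.
Asns: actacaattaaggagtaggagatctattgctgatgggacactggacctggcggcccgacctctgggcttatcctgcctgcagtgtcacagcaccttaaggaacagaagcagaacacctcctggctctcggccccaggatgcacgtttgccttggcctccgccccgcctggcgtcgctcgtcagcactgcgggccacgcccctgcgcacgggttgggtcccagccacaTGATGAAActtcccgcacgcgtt
The AP-1 letters used below differ from it, although matches of both can share bases.

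Chaperones of the endoplasmic reticulum were lower with sgRNA2. They fold secreted proteins and are induced by the unfolded protein response through ATF6, XBP1 and IRE1. Of 24 members, 0 rose and 16 fell, against 6.67% of all genes called lower, with a median of -0.16 (-0.13 in vehicle, -0.18 with IFNγ). The count was 15 after removal of the length and GC trend. The median deviation was 0.07 and 0.06 in the sgRNA1 vehicle libraries and -0.07 and -0.08 in the sgRNA2 ones, and with IFNγ 0.09 and 0.07 against -0.09 and -0.08.

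Hspa5 encodes BiP, the main ER chaperone of the HSP70 type. It had 1628 and 1568 CPM in sgRNA1 cells and 1315 and 1395 in sgRNA2 cells in vehicle, and 1801 and 1830 against 1562 and 1583 with IFNγ (-0.22 ± 0.020, adjusted p = 2.05e-10). Rosa26 libraries lay between the guides in both treatments, at 1456 and 1450 in vehicle and 1725 and 1686 with IFNγ. Calr, calreticulin, had 949 and 944 CPM against 780 and 761 in vehicle and 1128 and 1114 against 847 and 876 with IFNγ (-0.34 ± 0.021, adjusted p = 1.2e-14). Its sgRNA2 libraries lay near Rosa26, which had 782 to 844. Pdia6, a disulfide isomerase gene, fell by 0.27 (adjusted p = 7.59e-10), and its relative Pdia3 by 0.18 (adjusted p = 1.04e-07). Canx, calnexin, was at -0.02 ± 0.020 (adjusted p = 0.599) and Atf6 at -0.06 ± 0.037 (adjusted p = 0.337).

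The ER stress element (ERSE) was searched as CCAAT, any 9 bases and CCACG, on both strands. It was found in 8 of 21 promoters of this list and in 16 of 9425 (0.170%). Hspa5 spans chr2:34771840-34772089 on the plus strand, Calr chr8:84846932-84847181 on the minus strand and Pdia6 chr12:17266339-17266588 on the plus strand. They are shown with the match in capitals, which in Calr is on the other strand.
Hspa5: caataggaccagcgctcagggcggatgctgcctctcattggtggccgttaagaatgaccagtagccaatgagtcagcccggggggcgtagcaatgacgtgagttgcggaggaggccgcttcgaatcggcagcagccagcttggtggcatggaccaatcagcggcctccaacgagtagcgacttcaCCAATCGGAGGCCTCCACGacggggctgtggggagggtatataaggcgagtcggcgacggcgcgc
Calr: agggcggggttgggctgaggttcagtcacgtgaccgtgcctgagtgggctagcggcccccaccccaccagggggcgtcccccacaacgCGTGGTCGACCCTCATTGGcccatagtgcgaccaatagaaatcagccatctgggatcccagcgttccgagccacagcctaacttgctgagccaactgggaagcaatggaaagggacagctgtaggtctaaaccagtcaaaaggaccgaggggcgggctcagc
Pdia6: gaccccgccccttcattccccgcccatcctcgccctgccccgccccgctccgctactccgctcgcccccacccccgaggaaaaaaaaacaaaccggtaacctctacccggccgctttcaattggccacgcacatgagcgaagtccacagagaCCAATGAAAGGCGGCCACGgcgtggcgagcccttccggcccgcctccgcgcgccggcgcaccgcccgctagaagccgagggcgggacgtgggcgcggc
In all, 6 called members held the element, and these 3 were picked from them as examples after their values were seen.

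Hypoxia and glycolysis genes were lower with sgRNA2 as well. HIF-1, stabilised at low oxygen, activates glucose transport, glycolysis and pH control. Of 32 members, 0 rose and 21 fell, against 6.67% of all genes called lower, with a median of -0.13 (-0.15 in vehicle, -0.12 with IFNγ), and 19 fell after removal of the length and GC trend. The median deviation was 0.07 and 0.07 in the sgRNA1 vehicle libraries and -0.07 and -0.08 in the sgRNA2 ones.

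Car9, a membrane carbonic anhydrase and classic HIF-1 target, had 80.6 and 75.7 CPM in sgRNA1 cells and 54.8 and 55.5 in sgRNA2 cells in vehicle and 49.9 and 53.9 against 37.8 and 40.1 with IFNγ. The guides did not overlap (-0.47 ± 0.045, adjusted p = 7.69e-10), and Rosa26 was below both, at 50.9 and 48.4 in vehicle and 30.4 and 29.4 with IFNγ. Egln3, a prolyl hydroxylase that marks HIF for destruction, fell by 0.27 (adjusted p = 6.69e-09) and the phosphofructokinase gene Pfkp by 0.24 (adjusted p = 9.81e-08). Ndrg1 was at -0.06 ± 0.049 (adjusted p = 0.498). The hypoxia response element, searched as ACGTGC on both strands, was in 13 of 30 promoters of this list and in 769 of 9425 (8.16%). Car9 is shown for its match 19 bases before the start, over chr4:43506776-43507025 on the plus strand, where the element reads on the other strand.
Car9: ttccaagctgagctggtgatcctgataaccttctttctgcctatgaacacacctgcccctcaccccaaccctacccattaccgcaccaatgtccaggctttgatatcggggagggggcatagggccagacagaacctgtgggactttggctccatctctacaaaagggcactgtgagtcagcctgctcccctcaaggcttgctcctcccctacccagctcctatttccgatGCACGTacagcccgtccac

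**Figure D4:**
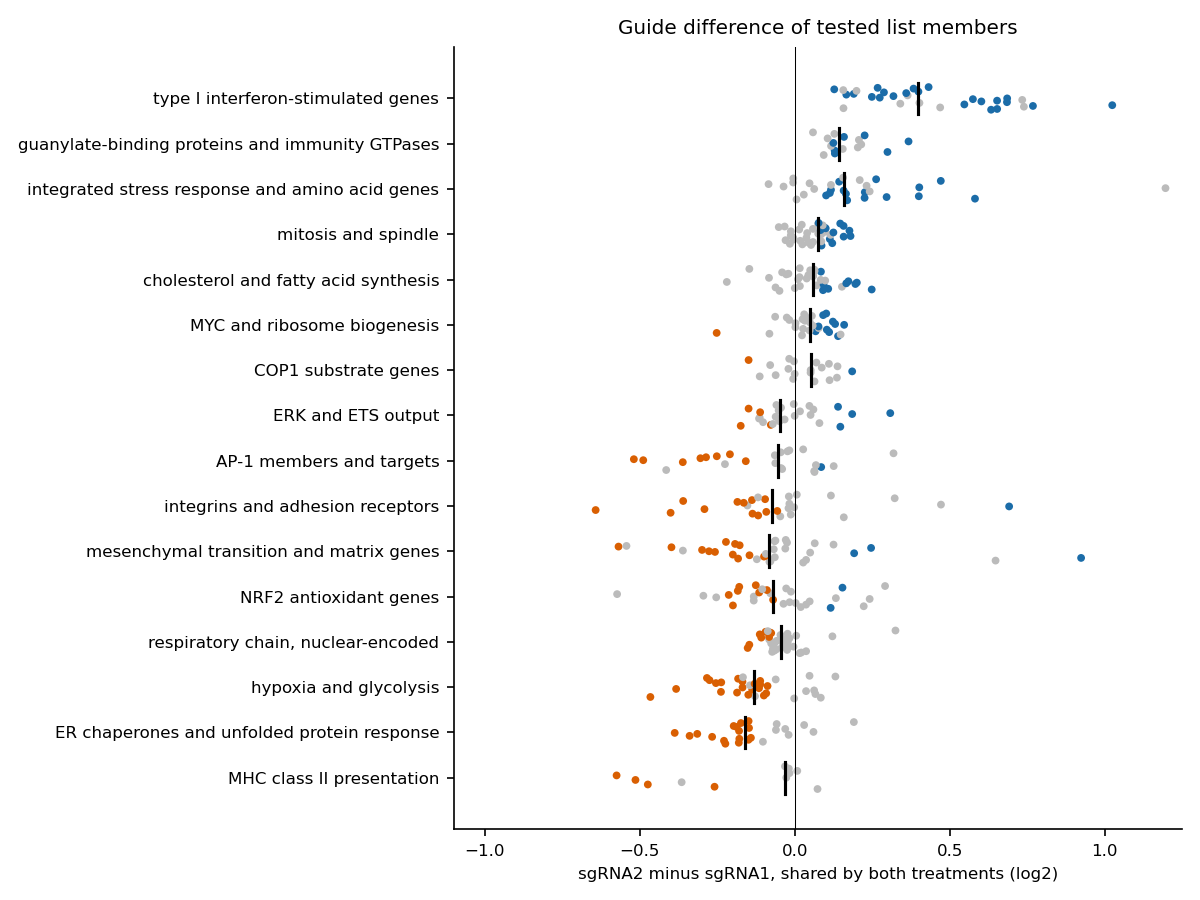
Shared guide difference (log2) of every tested member of 16 gene lists, 1 point per gene, with a black bar at the list's median. Blue points were called higher with sgRNA2, orange points lower, and grey points were not called. Interferon-stimulated and stress response genes lie mostly to the right of 0, and hypoxia and ER chaperone genes mostly to the left.

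The largest decreases with sgRNA2 included regulators, enzymes and secreted proteins. Tfap2c, which encodes the AP-2γ factor of mammary luminal cells, had 14.7 and 14.05 CPM in sgRNA1 cells and 9.04 and 8.81 in sgRNA2 cells in vehicle and 15.8 and 18.3 against 11.0 and 10.03 with IFNγ (-0.69 ± 0.085, adjusted p = 1.57e-07). All 8 libraries were above the 4 of Rosa26, which had 2.09 to 2.73. Ngef, a guanine nucleotide exchange factor gene, had 14.4 CPM and 13.0 CPM with sgRNA1 against 7.83 and 8.42 with sgRNA2 in vehicle and 13.6 and 15.4 against 7.01 and 6.93 with IFNγ (-0.90 ± 0.096, adjusted p = 9.12e-09). Padi3, a peptidylarginine deiminase gene, fell by 0.88 (adjusted p = 4.25e-10) and Nmnat2, of NAD synthesis, by 0.77 (adjusted p = 7.59e-10). Lgr6, a Wnt pathway receptor that marks progenitor cells in several epithelia, fell by 0.52 (adjusted p = 4.53e-11), and Stc1, a secreted glycoprotein gene, by 0.64 (adjusted p = 7.54e-13).

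In the opposite direction, Dynap, which encodes a membrane protein, had the largest increase among genes whose mean log2 CPM was 3 or more. It had 14.9 and 14.05 CPM in sgRNA1 cells and 28.3 and 27.3 in sgRNA2 cells in vehicle and 7.70 and 6.87 against 13.97 and 14.3 with IFNγ (0.94 ± 0.076, adjusted p = 1.12e-11). Rosa26 was above both guides in each treatment, at 40.4 and 39.2 and at 22.1 and 22.4. Cck, the cholecystokinin gene, also named after its values were seen, was the called 2-fold decrease with the smallest p, at a lower level, with 7.18 and 8.41 against 3.75 and 4.77 in vehicle and 8.30 and 8.35 against 2.80 and 3.10 with IFNγ (-1.15 ± 0.14, adjusted p = 9.67e-08).

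Integrins and other adhesion receptors had 1 of 26 called higher and 12 lower, against 6.67% of all genes called lower. Their median was -0.07. Itgb2, the beta-2 integrin subunit best known from leukocytes, had 52.7 and 50.9 CPM in sgRNA1 cells and 32.0 and 34.7 in sgRNA2 cells in vehicle and 40.6 and 44.6 against 26.4 and 28.0 with IFNγ (-0.64 ± 0.051, adjusted p = 7.94e-12). The tetraspanin genes Cd82 (-0.36 ± 0.040) and Cd9 (-0.16 ± 0.024) fell. Cd44, the hyaluronan receptor, was at -0.02 ± 0.021 (adjusted p = 0.665) and Itga2 at -0.05 ± 0.030 (adjusted p = 0.352, and 0.0374 after removal of the length and GC trend). After removal of the length and GC trend 13 fell.

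Matrix and mesenchymal genes had 3 of 35 higher and 13 lower (2 and 12 in the corrected count), against 6.67% of all genes lower. Serpine2, a protease inhibitor gene, had 166 and 167 CPM against 112 and 110 in vehicle and 149 and 154 against 103 and 104 with IFNγ (-0.57 ± 0.030, adjusted p = 1.07e-16). Col18a1 fell by 0.28 (adjusted p = 3.15e-09), while Fn1 was at -0.08 ± 0.037 (adjusted p = 0.214). Fn1 passed without the low-count filter and after removal of the length and GC trend (adjusted p down to 8.6e-05). The median transcript length of the list was 4912 bases, against 3430 for all genes. Without sgRNA1 IFNγ replicate 2, 1 rose and 9 fell.

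AP-1 genes bear on COP1 directly, since c-Jun is a substrate. Of 24 members and targets, 1 rose and 8 fell (3 and 8 in the corrected count), beside 6.67% of all genes called lower. Mmp3, stromelysin, had 503 and 505 CPM in sgRNA1 cells and 349 and 370 in sgRNA2 cells in vehicle and 454 and 450 against 319 and 325 with IFNγ (-0.49 ± 0.023, adjusted p = 9.52e-18). Rosa26 was below both guides, at 243 to 290. Plau, urokinase, had 638 and 613 against 465 and 497 in vehicle and 656 and 658 against 513 and 524 with IFNγ (-0.36 ± 0.023, adjusted p = 2.42e-14), with Rosa26 at 157 to 204. Mmp9, gelatinase B, fell by 0.52 (adjusted p = 3.15e-09) and Hbegf, a ligand of the EGF receptor, by 0.25 (adjusted p = 9.3e-10).

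The AP-1 letters, TGANTCA on both strands, were in 61 of 629 promoters of genes called lower with sgRNA2 (9.70%), in 36 of 602 of those called higher (5.98%) and in 5.85% of tested genes. They were in 4 of 19 promoters of the AP-1 list (21.05%). The type I interferon-stimulated genes, of which 0 were called lower, held them in 6 of 22 (27.27%). Mmp3 is shown for its match 46 bases before the start, over chr9:7445572-7445821 on the plus strand.
Mmp3: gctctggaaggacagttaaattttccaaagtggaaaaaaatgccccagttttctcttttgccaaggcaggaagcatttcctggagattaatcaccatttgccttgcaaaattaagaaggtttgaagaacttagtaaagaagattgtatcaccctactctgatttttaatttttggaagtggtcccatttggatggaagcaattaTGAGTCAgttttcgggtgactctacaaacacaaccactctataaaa

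Of 19 genes of COP1 substrates, 1 rose and 1 fell, and after removal of the length and GC trend 3 rose and 2 fell, beside 13.3% of all genes called. Jun had 125 and 125 CPM in sgRNA1 cells and 136 and 131 in sgRNA2 cells in vehicle and 132 and 137 against 138 and 139 with IFNγ (0.06 ± 0.030, adjusted p = 0.17, and 0.0345 after that correction). Cebpb was at -0.01 ± 0.043 (adjusted p = 0.965), Cebpd at 0.14 ± 0.075 (adjusted p = 0.256), Ets1 at 0.05 ± 0.024 (adjusted p = 0.165), Etv4 at -0.06 ± 0.038 (adjusted p = 0.316) and Etv5 at 0.00 ± 0.053 (adjusted p = 0.999). Ets2 rose by 0.19 ± 0.040 (adjusted p = 0.00121) and Ccnd1, cyclin D1, fell by 0.15 (adjusted p = 6.86e-07). COP1 acts on proteins, which were not measured.

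Of 14 ligase parts, adaptors and partners, Cop1, Sfn and Ddb1 fell and Trib3 rose (1 higher and 2 lower in the corrected count). Over all genes, 13.3% were called. Trib3, a Tribbles gene that ATF4 also controls, was at 0.23 ± 0.065 (adjusted p = 0.0161). That call ended in each of 4 fits that left out sgRNA1 vehicle replicate 1, sgRNA2 vehicle replicate 2, sgRNA1 IFNγ replicate 2 or sgRNA2 IFNγ replicate 1. Ddb1 (-0.07 ± 0.020, adjusted p = 0.0147) lost its call without sgRNA1 vehicle replicate 1 or 2, sgRNA2 vehicle replicate 2 or sgRNA1 IFNγ replicate 2 and with libraries summed, and Sfn (-0.16 ± 0.044, adjusted p = 0.00893) without sgRNA1 IFNγ replicate 2 and after removal of the length and GC trend. Trib1 (-0.04 ± 0.031, adjusted p = 0.418), Trib2 (-0.12 ± 0.057, adjusted p = 0.177) and Det1 (0.00 ± 0.080, adjusted p = 0.99) did not pass.

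Several abundant secreted factors were lower with sgRNA2. Lcn2, a siderophore-binding protein gene, had 126 and 118 CPM against 93.8 and 86.0 in vehicle and 283 and 281 against 191 and 194 with IFNγ (-0.50 ± 0.031, adjusted p = 8.79e-15). C3, complement component 3, fell by 0.43 (adjusted p = 1.34e-13). Csf3, the granulocyte colony-stimulating factor gene, had 572 and 548 CPM in sgRNA1 cells and 437 and 423 in sgRNA2 cells in vehicle and 1082 and 1086 against 753 and 757 with IFNγ (-0.45 ± 0.024, adjusted p = 1.04e-15). The guides were apart in both treatments, while Rosa26 lay near sgRNA2 in vehicle (467 and 449) and near sgRNA1 with IFNγ (1036 and 1050).

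Of 19 chemokines and colony-stimulating factors, 3 rose and 6 fell (4 and 5 in the corrected count), beside 13.3% of all genes called. The balance rested on single libraries, with 3 higher and 3 lower without sgRNA1 IFNγ replicate 1 or sgRNA2 IFNγ replicate 2, and 5 higher and 3 lower without sgRNA2 IFNγ replicate 1. Cxcl16 rose by 0.16 ± 0.032 (adjusted p = 0.000431) and Cx3cl1 fell by 0.16 (adjusted p = 0.000562). Csf1, the macrophage growth factor gene, was called at 0.09 ± 0.025 (adjusted p = 0.0103), a call that ended without sgRNA1 vehicle replicate 2 and with libraries summed. Ccl2 was at -0.12 ± 0.18 (adjusted p = 0.744), with 12.6 and 21.1 CPM in the sgRNA1 vehicle libraries, and it was called (adjusted p = 0.000837) without the first of these. Ptges, prostaglandin E synthase, fell by 0.45 (adjusted p = 3.25e-08) and Nt5e, the ecto-enzyme CD73 that makes adenosine, by 0.24 (adjusted p = 2.81e-08). Cxcr3, a chemokine receptor gene, fell by 0.58 (adjusted p = 4.92e-07).

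Growth and metabolic lists moved by small amounts. Over all genes, 6.61% were called higher and 6.67% lower. Of 39 mitosis genes, 13 rose and 0 fell (14 and 0 in the corrected count), with a median of 0.08, and 8 rose without sgRNA2 IFNγ replicate 2. Cenpf (0.18 ± 0.029) and Cenpe (0.16 ± 0.028), motor and kinetochore genes, rose, as did the transcription factor gene Foxm1 (0.16 ± 0.029), while Cdk1 was at -0.02 ± 0.024 (adjusted p = 0.748). Of 40 G1/S and DNA replication genes, 3 rose and 3 fell (2 and 3 in the corrected count), beside 13.3% of all genes called. Of 34 genes of cholesterol and fatty acid synthesis, 9 rose and 0 fell (13 and 0 in the corrected count), among them Hmgcs1 (0.25 ± 0.031), Sqle (0.20 ± 0.025) and Cyp51 (0.20 ± 0.027). Myc rose by 0.14 ± 0.026 (adjusted p = 0.000154) and the nucleolin gene Ncl by 0.11 ± 0.018 (adjusted p = 3.51e-05), whereas Odc1, ornithine decarboxylase, fell by 0.25 (adjusted p = 2.72e-12).

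Of 29 NRF2 antioxidant genes, 2 rose and 8 fell (2 and 6 in the corrected count), and 1 rose and 5 fell without sgRNA1 vehicle replicate 1. Gstp1, a glutathione transferase gene, fell by 0.21 (adjusted p = 4.66e-06) and Fth1, ferritin heavy chain, by 0.13 (adjusted p = 1.12e-05), while the autophagy receptor gene Sqstm1 rose by 0.15 (adjusted p = 3.97e-06). Of 36 nuclear-encoded respiratory chain genes, 0 rose and 8 fell, against 6.67% of all genes called lower. Ndufv1 led those respiratory chain genes (-0.15 ± 0.031, adjusted p = 0.000944). Their transcripts are short, with 17 in the shortest decile and a median length of 1679 bases against 3430, and after removal of the length and GC trend 3 fell. The count was 3 to 5 when sgRNA1 vehicle replicate 1, either sgRNA1 IFNγ library or sgRNA2 IFNγ replicate 1 was left out.

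Epithelial genes had 7 of 35 higher and 3 lower (8 and 5 in the corrected count), beside 13.3% of all genes called. Krt14, a basal keratin gene, rose by 0.42 ± 0.085 (adjusted p = 0.000537) and Cdh1, E-cadherin, by 0.15 ± 0.023 (adjusted p = 9.99e-06), while Krt19 fell by 0.24 (adjusted p = 2.45e-06). Wnt and Notch genes had 4 of 30 called higher and 3 lower, beside 13.3% of all genes called. In the Notch pathway the ligand gene Dll4 fell by 0.48 (adjusted p = 3.39e-09), and the ligand gene Jag1 (0.18 ± 0.045, adjusted p = 0.0047) and the receptor gene Notch2 (0.23 ± 0.039, adjusted p = 5.79e-05) rose. Among 26 ERK and ETS output genes there were 4 increases and 4 decreases, also in the corrected count, and 3 and 2 without sgRNA1 IFNγ replicate 2. Of 12 Hox and other homeobox genes, 0 were called, also in the corrected count, although 1 was called without sgRNA1 vehicle replicate 1.

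Set beside the control population, the guide differences had more than 1 form. Both guides are compared here with the same 4 Rosa26 libraries, so the values stand side by side and are not independent. The median of the 31 interferon-stimulated genes was -0.76 with sgRNA1 and -0.37 with sgRNA2 relative to Rosa26, and that of the 29 stress response genes -0.57 and -0.41. For the 24 ER chaperone genes the medians were 0.15 and 0.01, and for the 32 hypoxia and glycolysis genes 0.03 and -0.11. Over all tested genes both medians were 0.00. By mean log2 CPM over both treatments, Rosa26 lay between the guides in 462 of the 1559 called genes (29.6%). It lay outside them with sgRNA1 the farther in 829 (53.2%) and with sgRNA2 the farther in 268 (17.2%). Over all tested genes the shares were 17.1%, 48.4% and 34.6%, and these positions were not tested. Single genes showed each order of levels. Tfap2c was 2.71 above Rosa26 with sgRNA1 and 2.02 above it with sgRNA2, Plau 1.85 and 1.49, Itgb2 0.37 above and -0.27 below, and Cop1 -0.53 and -1.38. For Cop1 the sgRNA2 population was thus the farther from Rosa26, and for Tfap2c, Plau and Isg15 (-1.35 and -0.74) the sgRNA1 population was.

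**Figure D5:**
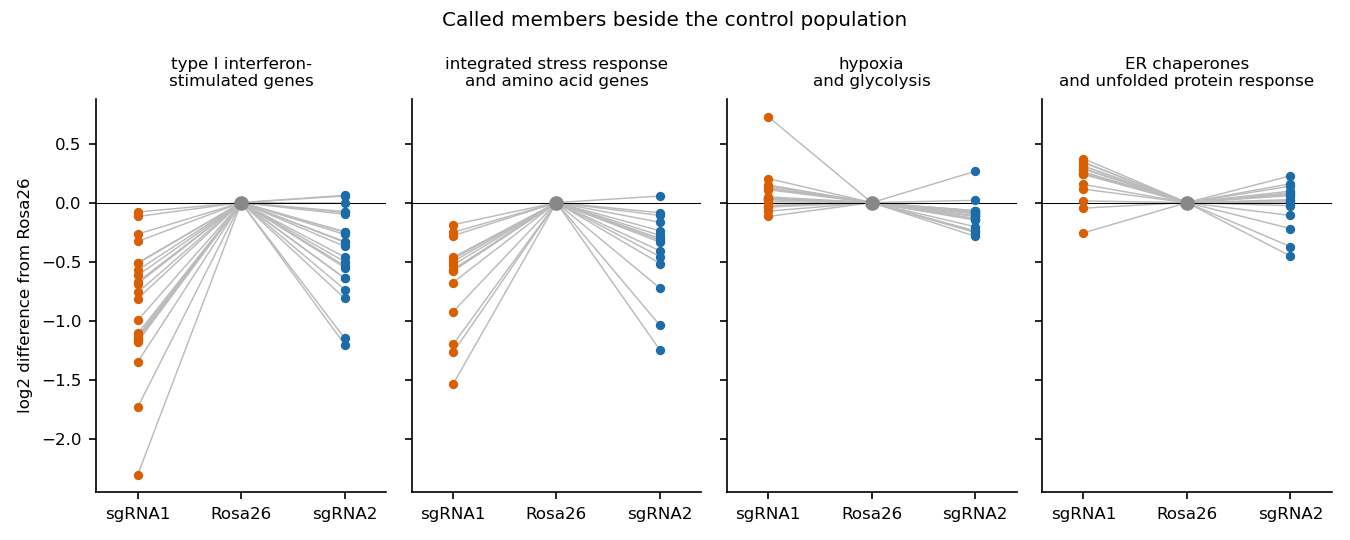
For 4 gene lists, the log2 difference from Rosa26 of each called member with sgRNA1 (left) and with sgRNA2 (right), with the Rosa26 level at 0 in the middle and a line per gene. Interferon-stimulated and stress response genes lie mostly below 0 with both guides and lower with sgRNA1, and ER chaperone genes lie mostly above 0 with sgRNA1. Both sides share the same 4 Rosa26 libraries.

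The share of genes called ran from 11.0% on chromosome 13 to 17.1% on chromosome 15, around 13.3% of all genes. Over all genes, 6.61% were called higher and 6.67% lower. The chromosomes described next had the largest shares and were picked for that. On chromosome 15, 67 of 475 tested genes were called higher and 14 lower, with a median difference of 0.04 (0.03 in vehicle and 0.04 with IFNγ), and all 10 of its windows of 10 Mb had a positive median. Chromosome 19 had 14 higher and 52 lower of 415 and chromosome 3 had 69 higher and 25 lower of 575. Relative to Rosa26 the median of chromosome 15 was 0.00 with sgRNA1 and 0.04 with sgRNA2, and that of chromosome 19 was -0.03 and -0.05. After removal of the length and GC trend chromosome 15 had 65 higher and 16 lower, chromosome 19 had 18 and 41 and chromosome 3 had 62 and 22. Of 250 windows with at least 10 tested genes, 0 had a median above 0.1 or below -0.1.

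Few genes were called for a guide difference that depended on the treatment. With 2 libraries a group, a gene without such a call may still depend on it. An interaction, the difference sgRNA2 minus sgRNA1 with IFNγ less that in vehicle, was called for 9 of 11738 genes (0.0767%). It was positive in 5 and negative in 4, and 993 genes had an unadjusted p under 0.05. DESeq2 called 13. Rnf213, an interferon-induced ubiquitin ligase gene, had 99.5 and 109 CPM in sgRNA1 cells and 101 and 93.0 in sgRNA2 cells in vehicle, and 225 and 235 against 320 and 307 with IFNγ. The guides overlapped in vehicle only, and the interaction was 0.55 (adjusted p = 6.49e-06). Smg1 (0.38), Ubr4 (0.31) and Aff1 (0.30) also had a positive interaction. These 4 genes have transcripts in the longest decile, where the median interaction was 0.08.

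The neutrophil chemokine genes Cxcl1 and Cxcl5 had the opposite form. Cxcl1 had 355 and 344 CPM in sgRNA1 cells and 335 and 314 in sgRNA2 cells in vehicle and 600 and 588 against 463 and 456 with IFNγ, an interaction of -0.26 (adjusted p = 0.00712). Cxcl5 had 354 and 347 against 366 and 369 in vehicle and 564 and 565 against 479 and 476 with IFNγ, an interaction of -0.31 (adjusted p = 0.000164). The guides were thus close in vehicle and apart with IFNγ for these genes, whose transcripts are short (1871 and 1863 bases). After removal of the length and GC trend 6 of the 9 interactions were called.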

How the data were processed

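RNA from 12 libraries of 4T1 cells was sequenced, and the deposited table holds raw counts of reads per gene, made by the authors. The submitters' processing notes name STAR 2.4.0, HTSeq, DESeq2 1.10 and the mm10 build. Strand setting, annotation and read filters were not given in the sources used here. If reads were counted without strand, overlapping and antisense genes cannot be told apart, and close paralogs can share or lose reads.

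The row of library totals was left out. Its values were those of the summed genes, except for an excess of 360 in sgRNA1 vehicle replicate 1. Of 22298 genes, 26 had symbols turned into dates and were not named. Groups were taken from each sample's treatment entry, since the protocol text gives IFNγ for every sample. Genes passed filterByExpr (minimum count 10, minimum total 15) and counts were scaled by TMM, leaving 11738 genes. The guide term of a model with treatment and guide over 8 libraries was tested with edgeR 4.0.16 in R 4.3.3 (quasi-likelihood F test, Benjamini-Hochberg adjusted p under 0.05, 5 residual degrees of freedom). A 4-group model gave the within-treatment differences and the interaction, and a 6-group model over 12 libraries gave each guide against Rosa26. Of the symbols, 21725 matched the RefSeq table directly, 384 by synonym and 189 did not. Code was tested on simulated counts.

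Genes named were drawn from Cop1 and the 12 largest increases and decreases whose mean log2 CPM was 3 or more. Discussed lists gave up to 3 called members with the smallest p and up to 2 uncalled members. The rest were up to 6 interactions in each direction, the neighbours of Cop1 and a list of genes of interest. Further lists, among them NF-kB, TGF-beta, YAP, p53, immediate early, proteasome and ribosomal protein genes, were run and are not described. The comparison, the gene lists and the tests were chosen with earlier results of these data known. The alternatives were RLE factors, unscaled totals, DESeq2 1.42.0, no low-count filter, only genes of mean log2 CPM 3 or more, a replicate block, other groupings of the libraries, a minimum fold of 1.2 and leaving out each library. Fits within 1 treatment and the length and GC correction were added after seeing the data.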

Additional observations from a re-analysis of the deposited data

Results flagged for a closer look

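For 9 genes the guide difference with IFNγ differed from that in vehicle by the interaction term of edgeR's quasi-likelihood test (adjusted p under 0.05, 2 libraries a group). The interaction, on the log2 scale, was 0.5467 for Rnf213 and -0.3078 for Cxcl5, and both were called in all 14 settings tried, at 0.41 to 0.61 and at -0.33 to -0.26. Cxcl1 was at -0.2639 and was called in 10 of the 14.

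The mitochondrial transcript mt-Co1 was at -0.2736, with 1279 and 1344 CPM in sgRNA1 cells and 1664 and 1579 in sgRNA2 cells in vehicle, and 1543 and 1605 against 1570 and 1649 with IFNγ. It was called in 12 settings. The guides were apart in vehicle and overlapped with IFNγ, and sgRNA2 vehicle replicate 1 had the highest mitochondrial share of the 12 libraries. H1f0, a linker histone gene, was at 0.2539 and was called in 10 settings.

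Smg1 (0.3843) and Ubr4 (0.3136) were called in 9 settings each, Pnisr (-0.4702) in 8 and Aff1 (0.3026) in 6. Smg1, Ubr4, Aff1 and Rnf213 are in the decile of genes with the longest transcripts, and the calls of Smg1, Ubr4 and Aff1 ended when each library's trend on length and GC content was removed. The part of that trend in these 4 interactions was not tested further.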

How the results depend on the processing

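The count of genes in the shared guide difference stayed within 1.5 times of 1559 in every setting but a minimum fold of 1.2, where it was 43, and ran from 1093 to 1547 when each library was left out in turn. The within-treatment counts moved more. In vehicle DESeq2 called 387 against 623, and leaving out a library gave 252 to 652. With IFNγ DESeq2 called 636 against 1018, and leaving out a library gave 336 to 1236. For the interaction, 9 genes became 75 without the low-count filter, 5 in the 6-group model and 2 to 99 when a library was left out, the last without sgRNA2 vehicle replicate 2. The causes were not tested.

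The replicate numbers did not pair the libraries (correlations of their deviations from -0.08 to 0.07). With the replicate block 1476 genes were called in the shared difference, 590 in vehicle, 955 with IFNγ and 9 in the interaction.

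Among the named genes, those called never changed direction. Uncalled values near 0 did. Etv5 was at 0.000721 with RLE factors, 0.00845 with unscaled totals and 0.00862 with the length and GC trend removed, and between -0.0696 and 0.052 with a library left out. Cebpb was at 0.00357 with unscaled totals and 0.0436 with that trend removed, and between -0.0468 and 0.0281 with a library left out. Det1 was between -0.0417 and 0.0379 with a library left out.

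The precision differed between genes, and Ccl2 above shows that it did not follow the level alone. The standard error was 0.020 for Hspa5, with over 1300 CPM in each library. It was 0.17 for Rsad2, with under 10 CPM in each library of the guides. Small differences of weakly expressed genes may therefore have been missed.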
